A study of Mus musculus with 5 samples.

Results

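Late erythroid clearance and ubiquitin genes are described here in erythroid cells of mouse bone marrow, compared between Polg mutant and wild-type (WT) mice. The set was given by name and holds 10 genes of organelle clearance, enucleation and proteome remodelling: Fbxo7, Trim58, Trim10, Rnf123, Rnf10, Ube2o, Ube2l6, Ube2h, Xpo7 and Alox15. All 10 had a probe set paired with their symbol alone, among 22180 genes so measured. The Polg mutant group (3 arrays) was homozygous for the Polgtm1Lrsn allele (mt/mt), a knock-in allele of the mitochondrial DNA polymerase gene, and the WT group (2 arrays) carried none of it (wt/wt). All mice had the C57BL/6 background and came from parents that both had floxed Atg7 alleles (Atg7 flox/flox), with 1 Epo-cre allele in the father. The inheritance of Cre by single offspring and the ages of the mice are not given in the sources used here. Bleeding of the mice is stated in the series' design text, whereas the treatment field of the labels reads None. Ter119, the antigen used to select the cells, is carried by erythroid cells from the erythroblast to the red cell, and cells with the leukocyte antigen CD45 were depleted first.

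An erythroblast becomes a red cell by condensing and expelling its nucleus and then, as a reticulocyte, by removing its mitochondria, ribosomes and most proteins other than haemoglobin. Ubiquitin marks many of these proteins for the proteasome. It is passed from an activating enzyme (E1) to a conjugating enzyme (E2) and then, with the help of a ligase (E3), to the protein. Several E2 and E3 genes are transcribed at high levels late in erythroid maturation, while nuclear export and lipid peroxidation enzymes act on the nucleus and the organelle membranes.

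In the Polg mutant cells, 4 of the 10 genes were lower on every array than on either WT array: the ligase genes Fbxo7, Rnf123 and Trim58 and the nuclear exporter gene Xpo7. Their levels in the Polg mutant were 84.4%, 79.5%, 76.3% and 87.5% of those in WT. None of the 10 was higher on every Polg mutant array than on both WT arrays. Over all genes tested, 9.73% were lower and 8.36% higher without overlap between the groups. With limma, which fits a linear model to each gene and shares information on the variance between genes, 0 of the 10 and 0% of all genes passed an adjusted p of 0.05 (Benjamini-Hochberg, two-sided). At an unadjusted p under 0.05 there were 3 genes, Fbxo7, Rnf123 and Xpo7, all lower, beside 5.33% of all genes lower and 4.18% higher. These shares include many genes with tied values. In the fit restricted to genes with 5 distinct values, 1536 of 7112 genes were so called in either direction. Trim10, Ube2l6 and Ube2h have tied values and were not in that fit. Of the other genes of the set, 2 were called there, Rnf123 and Trim58. The median difference of the 10 genes was -0.13 log2 units, Polg mutant minus WT, against 0 over all genes tested. The count of 3 became 5 without WT replicate 2, where 16.7% of all genes were so called in either direction. It was 1 without Polg mutant replicate 1 and 1 without Polg mutant replicate 2, beside 7.32% and 7.58% of all genes. It was 7 without WT replicate 2 and Polg mutant replicate 3 together, arrays that stood apart from the others, beside 20.1% of all genes. With the replicate number as a block it was also 3, beside 9.68% of all genes, but these were Fbxo7 and Trim58, which were lower, and Alox15, which was higher at 0.33.

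**Figure D1:**
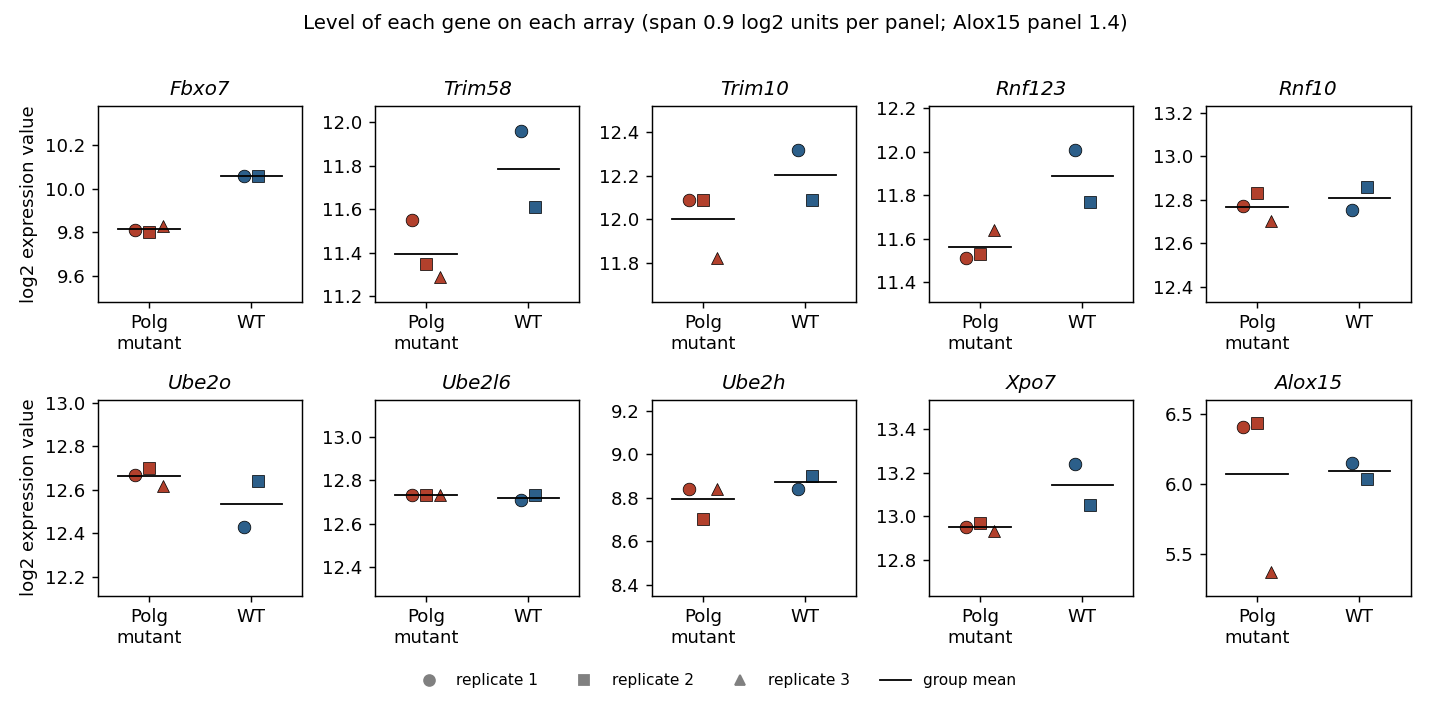
Log2 expression value (y axis) of each gene on the 3 Polg mutant arrays (red, left) and the 2 WT arrays (blue, right). Marker shapes give replicate numbers, black lines the group means. Fbxo7, Trim58, Rnf123 and Xpo7 have all Polg mutant points below both WT points, and Alox15 has 1 Polg mutant point, at 5.37, far below the rest.

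Values were log2 expression values deposited by the authors, with array medians between 5.10 and 5.13. Polg itself had an identical deposited value, 6.97, on all 5 arrays, a tie that was not read as a measure of equal levels. It checks no label either, since a knock-in allele is still transcribed. Erythroid identity was checked on Slc4a1, the band 3 anion exchanger, at 13.37 to 13.42 on Polg mutant arrays and at 13.58 and 13.46 on WT arrays. Over the 2000 genes of highest variance, principal component 1 (51.6% of variance) separated the genotypes. On component 2 (27.2%) WT replicate 1 lay furthest out, at 15.6. That component set Polg mutant replicate 3 (-14.7) and WT replicate 2 (-10.8) apart from the other 3 arrays. Summed linear levels of 14 neutrophil markers were 12679, 13241 and 5886 in the Polg mutant, against 11402 and 5403 in WT, which is the same division. Of 8 megakaryocyte markers the sums were 934, 1114 and 987 in the Polg mutant, against 1811 and 2221 in WT, so these groups did not overlap. Elane and Gp9 had the highest signal on these lists. Of the 14 neutrophil markers 0 differed without overlap. Of the megakaryocyte markers 1 did, Gp9, lower at 8.84, 9.23 and 9.11 in the Polg mutant and 10.42 and 10.41 in WT. The other megakaryocyte markers overlapped, so the separation of the sums is not shown beyond Gp9. Sums of 13 lymphocyte markers were 798, 711 and 568 in the Polg mutant, against 913 and 553 in WT, and 10 early erythroid and progenitor genes had a median difference of 0.069. No marker can read 0 on this scale. The part of these other cells in the differences below was not tested, and in bulk RNA fewer cells of a type and less RNA per cell cannot be told apart.

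Among the ligases, Fbxo7 is the substrate-binding F-box subunit of an SCF ubiquitin ligase and also binds the proteasome regulator PI31. Fbxo7 read 9.81, 9.80 and 9.83 on the Polg mutant arrays and 10.06 on both WT arrays. The groups were separated by a gap of 0.23, while arrays within a group lay within 0.029 of each other. The difference was -0.25 ± 0.018 (SE, 3 Polg mutant and 2 WT arrays), with a 95% interval of -0.30 to -0.19, an unadjusted limma p of 0.000262 and a limma adjusted p of 0.17. It was the gene of the set with the smallest p, and its difference stayed between -0.25 and -0.24 when any 1 array was left out. The limma adjusted p was 0.0288 without WT replicate 1 and 0.0453 without WT replicate 2, where the 1 remaining WT array is taken to vary like the Polg mutant group. In the fit restricted to genes with 5 distinct values its unadjusted p was 0.0683. The difference was -0.20 after quantile normalization again, with an unadjusted limma p of 0.025. With centring on genes with a mean above 6 it was -0.30, with an unadjusted limma p of 0.0113.

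Among partners of Fbxo7, Psmf1, which encodes PI31, was lower without overlap at 10.41 ± 0.10 in the Polg mutant and 10.67 ± 0.14 in WT (SD, n = 3 and 2), a difference of -0.26, or -0.17 without WT replicate 1. Skp1, the adaptor that joins F-box proteins to the cullin, was higher without overlap at 10.82 ± 0.16 in the Polg mutant and 10.53 ± 0.038 in WT, a difference of 0.29, while the mean over the probe sets of Skp1 differed by 0.11. The cullin gene Cul1 overlapped, at 8.81, 8.81 and 8.61 in the Polg mutant and 9.19 and 8.81 in WT, a difference of -0.26 that was -0.069 without WT replicate 1 and -0.45 without WT replicate 2. Of 7 measured genes on this list, 0 had an unadjusted limma p under 0.05 and 0 passed the adjusted threshold, with a median difference of 0.014.

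Rnf123 encodes KPC1, the catalytic subunit of a ligase that acts on the cell cycle inhibitor p27, and Ubac1 encodes its second subunit. Rnf123 read 11.51, 11.53 and 11.64 on the Polg mutant arrays and 12.01 and 11.77 on the WT arrays. The groups did not overlap, but the WT arrays differed from each other by 0.24. The difference was -0.33 ± 0.093 (SE), with a 95% interval of -0.60 to -0.067, an unadjusted limma p of 0.0261 and a limma adjusted p of 0.41. It was -0.21 without WT replicate 1 and -0.45 without WT replicate 2. Ubac1 was lower in the same way, at 10.88, 10.91 and 10.74 in the Polg mutant and 11.31 and 11.15 in WT, a difference of -0.39 ± 0.080 (SE, limma adjusted p = 0.295). Their substrate gene Cdkn1b, which encodes p27, overlapped, with means of 10.28 in the Polg mutant and 10.25 in WT, and its difference of 0.028 changed sign to -0.024 when arrays were centred on genes with a mean above 6.

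Trim58 is a tripartite-motif ligase that, in mouse erythroblasts, promotes the loss of the motor protein dynein before enucleation. It read 11.55, 11.35 and 11.29 on the Polg mutant arrays and 11.96 and 11.61 on the WT arrays. The groups did not overlap, yet the gap between them was 0.065 and the WT arrays differed by 0.35. The difference, -0.39 ± 0.15 (SE), was the largest in size among the 10 genes, with a 95% interval of -0.81 to 0.032, an unadjusted limma p of 0.0619 and a limma adjusted p of 0.589. Without WT replicate 1 it was -0.22 and without WT replicate 2 it was -0.57.

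Trim10, a related ligase needed for terminal differentiation of mouse erythroleukaemia cells, read 12.09, 12.09 and 11.82 on the Polg mutant arrays and 12.32 and 12.09 on the WT arrays. The middle value of 12.09 was shared by 3 arrays of both genotypes, WT replicate 1 stood above it and Polg mutant replicate 3 below it. The difference was -0.21 ± 0.13 (SE), with a 95% interval of -0.58 to 0.17 and a limma adjusted p of 0.638, and it was -0.09 without WT replicate 1, -0.32 without WT replicate 2 and -0.12 without Polg mutant replicate 3. Trim15, the neighbour of Trim10 in the RefSeq gene order, was higher without overlap, at 6.73 ± 0.25 in the Polg mutant and 5.44 ± 0.56 in WT (SD, n = 3 and 2; limma adjusted p = 0.342). Of the 13 related TRIM genes, Trim21 was also higher (difference 0.52) and Trim39 lower (-0.29) at an unadjusted limma p under 0.05, and the list's median was -0.018. The adjusted threshold was passed by 0 of them.

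Rnf10 is a RING ligase that, in human cells, marks small ribosomal subunit proteins. It read 12.77, 12.83 and 12.70 on the Polg mutant arrays and 12.75 and 12.86 on the WT arrays. The groups overlapped throughout. The difference was -0.037 ± 0.059 (SE), and its 95% interval of -0.21 to 0.13 leaves room for a change of either sign.

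The 250 bases before the annotated start are printed for 4 of these ligase genes, 3 that were lower without overlap and Trim10, because they are the set's TRIM, F-box and KPC ligases whose means were all lower. Sequences are from RefSeq, build GRCm38.p6, 5′ to 3′ on the gene's strand, and 7 of the 10 genes had an entry in the RefSeq table used. Capitals mark matches on either strand to GATAA, the core of sites bound by GATA factors, or to GTAAACA, a forkhead site bound by FOXO factors.
Fbxo7, chr10:86021679-86021928, plus strand: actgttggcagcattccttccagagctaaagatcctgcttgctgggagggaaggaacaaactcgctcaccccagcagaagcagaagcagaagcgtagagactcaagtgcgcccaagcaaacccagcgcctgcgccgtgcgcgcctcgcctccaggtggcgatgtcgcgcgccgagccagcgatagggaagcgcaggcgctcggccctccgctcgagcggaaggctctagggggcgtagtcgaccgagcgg
Rnf123, chr9:108079302-108079551, minus strand: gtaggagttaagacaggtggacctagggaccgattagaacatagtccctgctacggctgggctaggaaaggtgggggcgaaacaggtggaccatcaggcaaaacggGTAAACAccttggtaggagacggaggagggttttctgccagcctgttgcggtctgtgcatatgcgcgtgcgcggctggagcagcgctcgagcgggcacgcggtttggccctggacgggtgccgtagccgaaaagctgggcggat
Trim58, chr11:58640215-58640464, plus strand: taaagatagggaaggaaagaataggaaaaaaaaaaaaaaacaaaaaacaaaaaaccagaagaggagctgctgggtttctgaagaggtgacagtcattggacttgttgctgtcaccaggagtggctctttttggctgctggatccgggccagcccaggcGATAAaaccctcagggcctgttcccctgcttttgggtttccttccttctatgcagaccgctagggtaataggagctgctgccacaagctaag
Trim10, chr17:36869324-36869573, plus strand: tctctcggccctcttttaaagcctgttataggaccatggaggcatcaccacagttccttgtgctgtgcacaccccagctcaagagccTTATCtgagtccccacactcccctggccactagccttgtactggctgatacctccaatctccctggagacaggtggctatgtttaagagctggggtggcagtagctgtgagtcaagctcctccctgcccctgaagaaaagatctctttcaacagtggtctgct

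GATAA was found in 3 of the 9 windows of these 7 genes, 1 each of Trim58, Trim10 and Ube2h. It was found in 22.6% of all 32851 windows of the same length. GTAAACA was found in 2 of the 9, for Rnf123 and Ube2h, and in 3.17% of all windows. Fbxo7 and Ube2h have 2 annotated starts each, which gave 9 windows for the 7 genes, and the upstream one of Fbxo7 is printed. CCACACCC, the core of KLF1 sites, was found in 0 of the 9 windows and in 3.2% of all, searched on both strands like the others. A match here describes the letters of the window and is not shown to be a bound site. The genes of the factors that bind such letters were measured too. Foxo3, a forkhead factor of late erythroid maturation, was lower without overlap, at 9.68, 9.82 and 9.90 in the Polg mutant and 10.08 and 10.12 in WT (difference -0.30 ± 0.075 SE, limma adjusted p = 0.36). Gata1 and Klf1, which encode the main activators of erythroid genes, differed by -0.12 ± 0.051 and -0.13 ± 0.060 (SE), with limma adjusted p of 0.638 and 0.638. Without WT replicate 1 they differed by -0.049 and -0.080, and Gata1 by -0.19 without WT replicate 2.

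**Figure D2:**
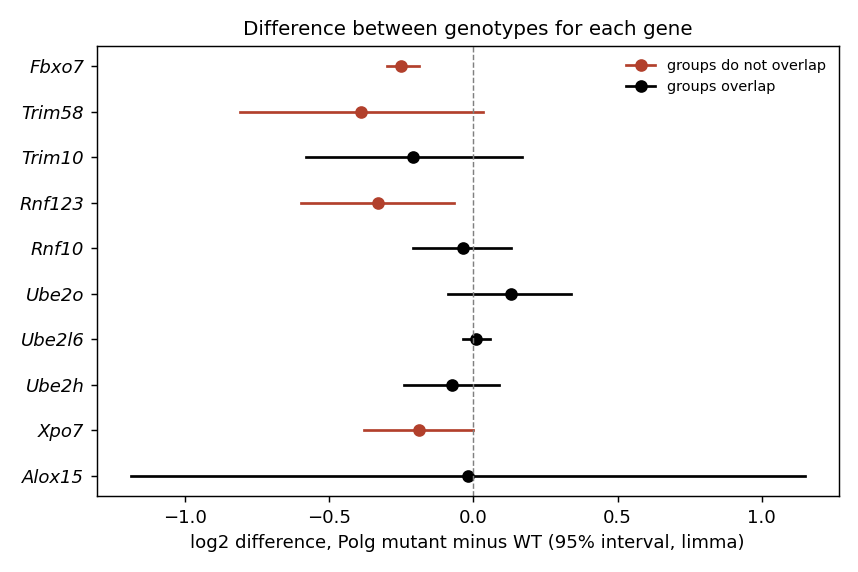
Log2 difference, Polg mutant minus WT (x axis), of each gene with its 95% interval from limma. Red marks genes whose groups do not overlap. The interval is narrowest for Fbxo7 and Ube2l6 and widest for Alox15, from -1.19 to 1.15, and the 3 intervals that lie wholly below 0 are those of Fbxo7, Rnf123 and Xpo7.

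For the 3 conjugating enzymes of the set the genotypes overlapped. Ube2o is an E2 that also acts as a ligase and that, in mouse reticulocytes, targets ribosomal proteins for degradation. It read 12.67, 12.70 and 12.62 on the Polg mutant arrays and 12.43 and 12.64 on the WT arrays. WT replicate 1 lay below the other 4 arrays, which were within 0.082 of each other. The difference was 0.13 ± 0.076 (SE), with a 95% interval of -0.089 to 0.34 and a limma adjusted p of 0.638, and it was 0.024 without WT replicate 1 and 0.23 without WT replicate 2.

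Ube2l6 is the E2 that attaches ISG15, a ubiquitin-like protein induced by interferon, and can also carry ubiquitin. It read 12.73 on all 3 Polg mutant arrays and 12.71 and 12.73 on the WT arrays. The deposited values were identical on the 3 Polg mutant arrays, and over all genes tested 67.9% had such a tie between arrays. The difference was 0.010 ± 0.017 (SE), with a 95% interval of -0.038 to 0.059, and it changed sign to -0.033 after renewed quantile normalization. Of the other genes of ISG15 conjugation, Isg15 and Uba7 were higher without overlap, and Herc6, Usp18 and Trim25 overlapped. Isg15 read 9.14, 8.97 and 8.97 in the Polg mutant and 8.04 and 8.59 in WT, a difference of 0.72 ± 0.20 (SE, limma adjusted p = 0.4), which was 0.44 without WT replicate 1 and 0.99 without WT replicate 2. Uba7, the E1 for ISG15, was at 11.54, 11.33 and 11.57 in the Polg mutant and 11.02 and 11.18 in WT (difference 0.38, limma adjusted p = 0.405). Of the 5 genes on this list these were the 2 with an unadjusted p under 0.05, 0 passed the adjusted threshold, and the list's median was 0.22. Summed levels of 17 interferon-stimulated genes, Isg15 among them, were 17793, 16219 and 16783 in the Polg mutant, against 11566 and 14384 in WT. On that list 4 genes were higher and 2 lower at an unadjusted p under 0.05, with Rsad2 at 0.16 and Ifit2 at -0.47, or -0.30 without WT replicate 1. The largest differences among the 4 were 1.69 for Oasl2 and 1.28 for Ifit1. Their WT arrays lay far apart, at 8.63 and 10.23 for Oasl2 and 8.62 and 9.79 for Ifit1.

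Ube2h is the E2 that works with the CTLH ligase, a complex whose catalytic subunits include Maea. Its brighter probe set read 8.84, 8.70 and 8.84 on the Polg mutant arrays and 8.84 and 8.90 on the WT arrays. The groups overlapped and Polg mutant replicate 2 was the lowest array. The difference was -0.076 ± 0.058 (SE), with a 95% interval of -0.24 to 0.09. A second Ube2h probe set pointed the other way, at 7.85, 7.75 and 7.27 in the Polg mutant and 7.41 and 7.51 in WT, a difference of 0.16, and the mean of both probe sets differed by 0.043. The brighter one differed by -0.031 without Polg mutant replicate 2 and by -0.045 without WT replicate 2.

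Some subunits of the CTLH ligase itself were lower without overlap. Of 11 measured subunits, 4 were lower and 0 higher at an unadjusted limma p under 0.05, 4 were lower without overlap, and 0 passed the adjusted threshold, with a median difference of -0.15. Ranbp10, a subunit that binds Ran and tubulin, read 12.48, 12.53 and 12.49 in the Polg mutant and 12.74 and 12.73 in WT, a difference of -0.23 ± 0.024 (SE, limma adjusted p = 0.2). Its unadjusted limma p was 0.0829 in the fit restricted to genes with 5 distinct values. The scaffold subunit genes Armc8 and Gid8 differed by -0.30 ± 0.067 and -0.28 ± 0.064 (SE). Maea overlapped, at 9.28 ± 0.038 in the Polg mutant and 9.34 ± 0.053 in WT (SD, n = 3 and 2), a difference of -0.059 that was -0.022 without WT replicate 1 and -0.10 without WT replicate 2.

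Xpo7 is a nuclear exporter whose knockdown in mouse erythroblasts impairs nuclear condensation and enucleation. It read 12.95, 12.97 and 12.93 on the Polg mutant arrays and 13.24 and 13.05 on the WT arrays. The groups did not overlap, with a gap of 0.074 and a distance of 0.19 between the WT arrays. The difference was -0.19 ± 0.067 (SE), with a 95% interval of -0.38 to -0.0017, an unadjusted limma p of 0.0488 and a limma adjusted p of 0.521. It was -0.10 without WT replicate 1 and -0.29 without WT replicate 2. The unadjusted limma p of Xpo7 was 0.165 among genes with 5 distinct values and 0.0535 with trend and robust moderation. Without Polg mutant replicate 1, 2 or 3 it was 0.124, 0.104 and 0.136. With quantile normalization again it was 0.017, and with centring on genes with a mean above 6 it was 0.029.

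Ranbp17, a paralog of Xpo7, was lower without overlap too. It read 5.87, 6.41 and 6.24 in the Polg mutant and 7.39 and 7.40 in WT, a difference of -1.22 ± 0.18 (SE, limma adjusted p = 0.238). Its limma adjusted p was 0.047 in the fit restricted to genes with 5 distinct values, where 1.6% of genes passed. Signal over background was not known, so the Polg mutant level was not shown to be above it. Of 26 exportin, importin and Ran cycle genes, 4 were lower and 0 higher at an unadjusted limma p under 0.05, 8 were lower and 1 higher without overlap, and 0 passed the adjusted threshold. Rangap1, which activates GTP hydrolysis by Ran, differed by -0.29 and the importin gene Kpna2 by -0.19, and the list's median was -0.12.

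Other genes of enucleation and nuclear condensation gave 7 lower and 1 higher of 25 at an unadjusted limma p under 0.05, with a median of -0.10 and 0 past the adjusted threshold. Lmnb1, which encodes lamin B1 of the nuclear envelope, read 8.63, 8.95 and 8.92 in the Polg mutant and 9.93 and 9.69 in WT, a difference of -0.98 ± 0.14 (SE). Its limma adjusted p was 0.0478 in the fit to genes with 5 distinct values. Diaph3, the formin mDia2 that builds the actin ring of enucleating and dividing cells, differed by -0.38 ± 0.060 (SE). The exception was Plek2, an actin regulator of late erythroblasts, which was higher at 10.11, 9.75 and 10.19 in the Polg mutant and 9.03 and 9.26 in WT. Genes of dynein and dynactin, the machinery on which Trim58 acts, gave 3 lower and 1 higher of 19 at the same unadjusted threshold, with a median of -0.0037 and 0 past the adjusted one. Nde1, a dynein cofactor, differed by -0.56, the heavy chain gene Dync1h1 and the dynactin gene Dctn1 by -0.34 each, and the light chain gene Dynlt3 by 0.56.

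Alox15 encodes a lipoxygenase that oxidises membrane lipids of organelles in maturing reticulocytes, first described in the rabbit. It read 6.41, 6.44 and 5.37 on the Polg mutant arrays and 6.15 and 6.04 on the WT arrays. The Polg mutant arrays lay on both sides of WT, 2 above and replicate 3 below, and they spanned 1.07 log2 units. The difference was -0.019 ± 0.41 (SE) with a 95% interval of -1.19 to 1.15, the widest of the 10 genes. It was 0.33 without Polg mutant replicate 3 (limma unadjusted p = 0.0118). Replicate 3 was also the Polg mutant array with the lowest neutrophil sum, 5886 against 12679 and 13241 on the other Polg mutant arrays. The WT sums were 11402 and 5403, with Alox15 at 6.15 and 6.04. For 13 macrophage and monocyte markers, replicate 3 had the lowest sum too, at 1945. The other Polg mutant arrays had 3298 and 3465, and the WT arrays 2612 and 2199. Sums of 11 eosinophil and basophil markers were 3129, 2261 and 1976 in the Polg mutant, against 1903 and 1729 in WT. Their part in the Alox15 values was not tested. A list of 7 other genes held lipoxygenases and the activating protein of 5-lipoxygenase. Of these, 0 had an unadjusted limma p under 0.05 and 0 passed the adjusted threshold, with a median of 0.035.

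**Figure D3:**
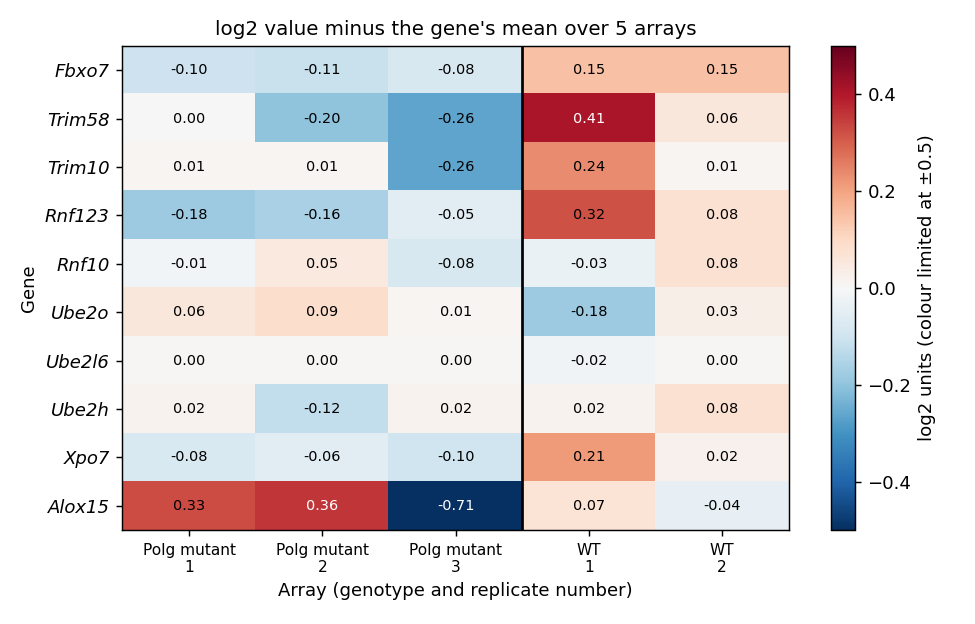
Log2 value of each gene on each array minus that gene's mean over the 5 arrays, with Polg mutant arrays left of WT arrays and colour limited at 0.5 in either direction. WT replicate 1 holds the highest values of Trim58, Trim10, Rnf123 and Xpo7 (0.21 to 0.41 above the mean), Fbxo7 is alike on both WT arrays at 0.15, and Alox15 is at -0.71 on Polg mutant replicate 3.

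The arrays within a genotype did not contribute alike. WT replicate 1 lay above WT replicate 2 for Trim58, Trim10, Rnf123, Xpo7 and Alox15, by 0.11 to 0.35, and below it by 0.12 and 0.21 for Rnf10 and Ube2o. Of the 10 genes, 5 had their lowest value on Polg mutant replicate 3 and 0 their highest. For Trim58, Trim10, Rnf123 and Xpo7 the distance between the WT arrays was at least as large as the gap between the groups, whereas for Fbxo7 it was 0.0017 against a gap of 0.23.

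**Figure D4:**
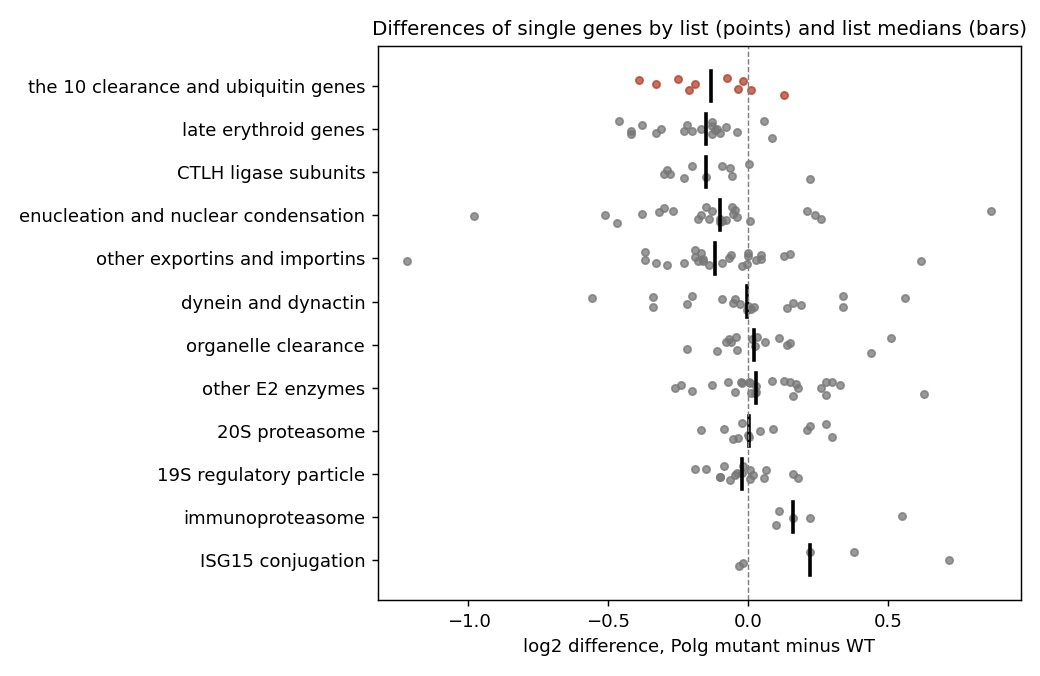
Log2 difference, Polg mutant minus WT (x axis), of the measured genes of each list (points, spread vertically for view) and the list medians (black bars). The 10 clearance and ubiquitin genes (red) have a median of -0.13, late erythroid genes and CTLH subunits -0.15 each, and ISG15 conjugation 0.22.

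Late erythroid genes outside the set gave the wider setting of these values. Of 20 measured genes, such as those of the red cell membrane and of erythroid transcription but also Nprl3, Bpgm and Mkrn1, 10 were lower and 0 higher at an unadjusted limma p under 0.05, 14 were lower without overlap and 0 passed the adjusted threshold. Their median of -0.15 was close in value to the -0.13 of the 10 clearance and ubiquitin genes. Slc25a37, the mitochondrial iron importer, differed by -0.20 ± 0.017 (SE), the GATOR1 gene Nprl3 by -0.42 ± 0.050 and the blood group gene Rhd by -0.42 ± 0.077. Their unadjusted limma p in the fit restricted to genes with 5 distinct values was 0.123, 0.0111 and 0.0155. Slc4a1 differed by -0.13 ± 0.047 (SE), or -0.067 without WT replicate 1. A difference between the set and these other late erythroid genes was not tested.

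The general ubiquitin and proteasome genes had medians near 0. Of 13 genes of the 20S proteasome core, 0 had an unadjusted limma p under 0.05, and the median was 0.0039. Of 17 genes of the 19S regulatory particle, 1 did, Psmd8 at 0.16 ± 0.053 (SE), with a median of -0.021. All 5 immunoproteasome and activator genes had differences above 0, with a median of 0.16, and Psme1, a subunit of the PA28 activator, was higher at 8.74 in the Polg mutant and 8.19 in WT (difference 0.55 ± 0.090 SE, limma adjusted p = 0.249). Of 26 other E2 genes, 2 were higher and 0 lower at that threshold, Ube2d3 by 0.26 and Ube2w by 0.17, with a median of 0.027. Ube2l3, the closest relative of Ube2l6 among them, differed by 0.0031 ± 0.18 (SE), with a sign that turned to -0.0022 on median centring. Only 3 of 10 ubiquitin and E1 genes were measured, and 0 of them had an unadjusted p under 0.05. The adjusted threshold was passed by 0 genes of each of these lists.

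Organelle clearance genes of the autophagy pathway gave 1 higher and 1 lower of 16 at an unadjusted limma p under 0.05, with a median of 0.019 and 0 past the adjusted threshold. Sqstm1, the cargo receptor p62, read 11.52, 11.41 and 11.23 in the Polg mutant and 10.95 on both WT arrays, a difference of 0.44 ± 0.10 (SE). Wipi1, which binds the phospholipid of forming autophagosomes, read 8.72, 8.81 and 8.85 in the Polg mutant and 9.02 and 9.01 in WT, a difference of -0.22 ± 0.045 (SE). Atg7, floxed in these mice, was at 7.74 in the Polg mutant and 7.73 in WT, with only 2 distinct values over the arrays. Its difference of 0.014 changed sign to -0.027 after renewed quantile normalization. Bnip3l, the mitophagy receptor of reticulocytes, had no probe set paired with its symbol alone and was not analysed here.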

How the data were processed

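The authors deposited log2 expression values of 1-colour arrays for 41345 probe sets, 1 column per array without pooling. That the scale is log2 follows from the values (1.43 to 14.07). RMA and Partek 6.5 are named per the submitters' processing notes, without role or order, and the build behind the probe annotation is not given in the sources used here. Scanner files are not analysed here, so background signal is unknown and the number of arrays limits the precision.

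Probe sets with 1 symbol were named (23521), and the brightest over all arrays was kept per gene. Genotypes were compared in R 4.3.3 with limma 3.58.1 (genotype as the single term, eBayes, two-sided, Benjamini-Hochberg over 22180 genes, threshold 0.05). The fit was tested on simulated normal values without ties and with larger shifts than the 10 genes had. That test cannot vouch for the fit on tied values or small differences. An exact permutation test of 1 gene cannot go below p = 0.1 with 10 splits of 5 arrays. The labels do not name separate animals, so p-values measure only the spread between samples, possibly a technical one. The 10 genes, their 23 related lists (294 of 332 symbols measured) and the tests were chosen with earlier results of these data known. Of each list without marker genes of other cells, up to 3 genes of smallest p, if under 0.05, are named, with partners fixed by name. Gp9, Elane, Oasl2 and Ifit1 were chosen after their values were seen. Sums add linear values, 2 to the power of each log2 value. Alternatives were other scalings, a filter on dim genes, other variance moderation, untied genes, the mean over probe sets, a replicate block and leaving out arrays. The 2 arrays left out together were chosen after seeing the data.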

Additional observations from a re-analysis of the deposited data

How the results depend on the processing

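Over the alternatives run, Fbxo7, Trim58, Trim10, Rnf123 and Xpo7 remained below 0 and Ube2o above 0, and the median of the 10 genes ranged from -0.20 to -0.10. Ube2l6 turned to -0.033 with quantile normalization again and -0.042 with centring on genes with a mean above 6, Ube2h to 0.043 with the mean of all probe sets, and Atg7 to -0.027 and -0.038 under the same scalings as Ube2l6. Cdkn1b turned to -0.024 with that centring and Ube2l3 to -0.049, or to -0.0022 on median centring. Without WT replicate 2 and Polg mutant replicate 3, chosen after seeing the data, Alox15 was at 0.28, Rnf10 at 0.054 and Cdkn1b at -0.11. Leaving out 1 array gave -0.20 to 0.33 for Alox15, -0.10 to 0.022 for Rnf10, -0.0014 to 0.022 for Ube2l6, -0.17 to 0.23 for Cdkn1b and -0.11 to 0.14 for Ube2l3. With quantile normalization again Ube2h was at -0.035, Maea at -0.0051, Slc4a1 at -0.079 and Gata1 at -0.074, and with centring on genes with a mean above 6 Ube2w was at 0.11. Of 52 genes named by rule, 45 kept their sign in every alternative that included them. In the fit restricted to genes with 5 distinct values, several named genes lost an unadjusted limma p under 0.05. It was 0.0829 for Ranbp10, 0.123 for Slc25a37, 0.0993 for Wipi1 and 0.0683 for Ube2d3. Psmd8 was at 0.226, Ube2w at 0.195, Kpna2 at 0.163, Rsad2 at 0.211 and Gid8 at 0.0589. Others kept it, among them Ubac1 (0.0219) and Nprl3 (0.0111).

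Genes past the adjusted threshold, higher and lower in the Polg mutant, numbered 0 and 0. They were 10 and 2 with quantile normalization again, 31 and 24 with centring on genes with a mean above 6, 6 and 5 among genes above 6 on at least 2 arrays, 4 and 1 without variance moderation, and 73 and 41 among genes with 5 distinct values. Leaving out 1 array gave 0 to 713 higher and 0 to 1068 lower, the counts above 0 coming from the fits that left out a WT array (713 and 1068 without WT replicate 1, 511 and 413 without WT replicate 2). Without WT replicate 2 and Polg mutant replicate 3 they were 1127 and 921. Genes at an unadjusted p under 0.05 numbered 2110, 1623 to 4475 on leaving out 1 array and 4463 without that pair. Of the 10 genes, 1 to 5 had an unadjusted p under 0.05 on leaving out 1 array, and 7 without the pair. These counts of the 10 genes are of either direction. The fits with 1 WT array take the spread from the Polg mutant arrays alone. The cause of the other changes was not tested.

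Replicate numbers were shared by the groups only as numbers. Deviations of same-numbered arrays correlated at 0.188 for number 1 and -0.201 for number 2 across genes, so no pairing was shown. The highest correlation was 0.312, between WT replicate 2 and Polg mutant replicate 3. With 2 WT arrays, each Polg mutant array correlates with them at values of the same size and opposite sign. With the replicate block 2146 genes had an unadjusted p under 0.05 and 0 passed the adjusted threshold. Of the 10 genes 3 had an unadjusted p under 0.05: Fbxo7 kept it, Rnf123 (0.0869) and Xpo7 (0.196) lost it, and Trim58 (0.0482) and Alox15 (0.045) gained it. Alox15 was at 0.33, as without Polg mutant replicate 3, which has no partner in that fit. Signal over background was unknown, which limits the genes of low level, among them Alox15, Ranbp17, Ifit2, Dynlt3 and, in WT, Trim15.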
